A study of Mus musculus with 8 samples.

Results

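Calsequestrin 1 (Casq1, ENSMUSG00000007122) and sarcolipin (Sln, ENSMUSG00000042045) were followed in tibialis anterior, a fast muscle of the lower leg, of mice wasting from metastatic cancer. The pair of genes was chosen by measured values, their large changes of opposite sign in the deposited gene tables, so their own values are a description and support nothing further. Of the 2 members, both have a row in the table of the 4T1 comparison, among 4334 genes, and Casq1 alone has one in that of the C26m2 comparison, among 4832 genes. Together the tables hold 6028 genes.

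The tumour-bearing groups were Balb/c mice cachectic from 4T1, a metastatic mouse breast cancer line, and CD2F1 mice cachectic from C26m2, a metastatic mouse colon cancer line carrying luciferase, as the 4T1 cells also did. Their references were healthy Balb/c and healthy CD2F1 mice of matching age, and the labels give 12 to 14 weeks for all 4 groups, with 2 libraries each. Tumours were removed 2 to 3 weeks after the cells were injected and muscle was taken at 5 weeks, so the mice had metastases and had been through surgery, which the labels do not record for the healthy mice. Each cancer line was paired with 1 strain, so line and strain cannot be told apart. The deposited values are 1 FPKM value per group (fragments scaled by transcript length and by the library's total), with no spread between libraries and no known depth. A gene is called when a table lists it, at the authors' Cuffdiff q-value of 0.05 or less. A gene with no row in the tables used here has no value and is not called unchanged.

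In a muscle fibre, calcium is held in the sarcoplasmic reticulum, released through ryanodine receptors when the T-tubule voltage sensor is triggered, and returned by the SERCA pump. Calsequestrin 1 is the abundant, low-affinity calcium-binding protein inside that store in fast fibres, and calsequestrin 2 is its counterpart in heart and slow muscle. Sarcolipin is a short membrane peptide that binds SERCA and lowers the calcium moved per ATP spent. In adult rodents it is abundant in the atria and scarce in fast muscle. Myoregulin (Mrln) is another membrane peptide that inhibits SERCA in skeletal muscle.

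The coding sequences of the pair of pump regulators with a row in the tables are shown because they moved in opposite directions. Both come from GENCODE M21 on GRCm38, which is not the build the authors used, and start and stop codons are in capitals. Sln lies on the plus strand at chr9:53853473-53853568, with 31 codons before the stop in a 1318-base transcript of 2 exons. Mrln lies on the plus strand at chr10:70219496-70219636, with 46 codons before the stop in a 443-base transcript of 3 exons. Each reading frame is within 1 exon.
Sln: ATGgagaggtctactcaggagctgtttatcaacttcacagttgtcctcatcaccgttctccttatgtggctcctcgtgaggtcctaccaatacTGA
Mrln: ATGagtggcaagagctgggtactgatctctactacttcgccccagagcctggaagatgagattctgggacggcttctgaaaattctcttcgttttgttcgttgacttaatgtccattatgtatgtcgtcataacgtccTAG

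Casq1 fell in both models. In the authors' deposited table of the 4T1 comparison it had 31.3 FPKM in 4T1-bearing muscle, against 1491 FPKM in healthy Balb/c muscle. That is a 47.6-fold fall, a log2 fold change of -5.57, at a q-value of 0.000382. In the deposited table of the C26m2 comparison it had 66.4 FPKM in C26m2-bearing muscle, against 1355 FPKM in healthy CD2F1 muscle, a 20.4-fold fall with a log2 fold change of -4.35 and a q-value of 0.000319. These are the lowest q-values either table holds, and many genes share them, 1727 in the 4T1 comparison and 2058 in the C26m2 comparison. The 2 healthy groups, scaled in separate tables, stood close together, and the tumour-bearing groups stood far below them. Whether the falls differ in size between the models was not tested, since no error is given.

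Sln rose in the 4T1 model. In the authors' deposited table it had 24.2 FPKM in 4T1-bearing muscle, against 0.791 FPKM in healthy Balb/c muscle, a 30.6-fold rise with a log2 fold change of 4.94 and a q-value of 0.000382. The healthy level was under 1 FPKM, so the size of the fold rests on a low value: with 1 FPKM added to both groups it was 14.1-fold. Sln has no row in the C26m2 table used here, and its level in CD2F1 muscle is not analysed here.

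**Figure D1:**
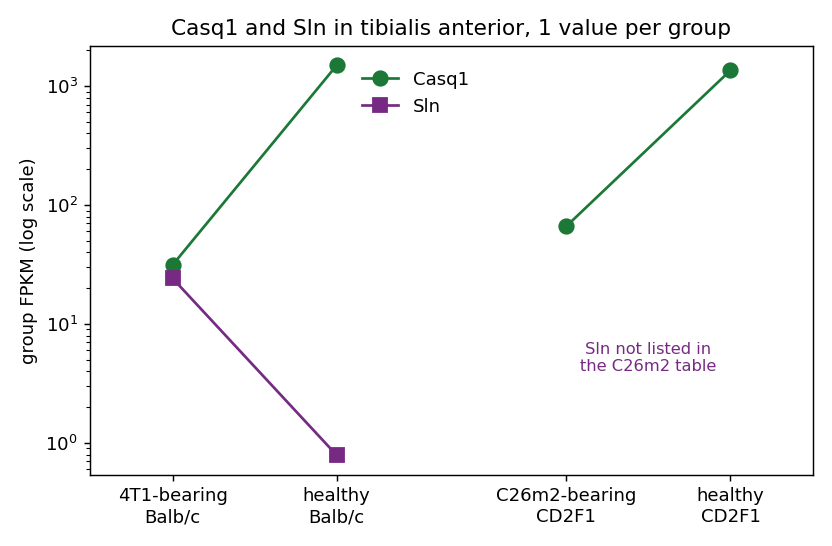
Group FPKM on a log scale (1 value per group, so no error bars) for Casq1 and Sln, with each tumour-bearing group left of its healthy group. Casq1 lies at 31.3 and 66.4 FPKM in tumour-bearing muscle, against 1491 and 1355 FPKM in healthy muscle, while Sln lies at 24.2 FPKM in 4T1-bearing muscle and 0.791 FPKM in healthy Balb/c muscle.

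Casq1 stood far above Sln in level in healthy Balb/c muscle, and the pair stood close together in 4T1-bearing muscle. FPKM is scaled per length, so levels of different genes can be set side by side, though only roughly. The Casq1 level was 1.29 times the Sln level in 4T1-bearing muscle and 1884 times in healthy Balb/c muscle. The healthy ratio rests on the low Sln value of 0.791 FPKM. Among the 4334 listed genes Casq1 ranked 944th by level in 4T1-bearing muscle and 10th in healthy Balb/c muscle. Sln ranked 1113th in 4T1-bearing muscle and 3846th in healthy Balb/c muscle. In the C26m2 table Casq1 ranked 618th of 4832 genes in C26m2-bearing muscle and 16th in healthy CD2F1 muscle. Neighbours in these orders cannot be separated, because no spread is given.

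Among the listed genes most abundant in healthy muscle, Casq1 fell most. It was chosen for its large change, so this place is a description. Of 16 genes listed at 1000 FPKM or more in healthy Balb/c muscle, all were lower in 4T1-bearing muscle. Casq1 fell most of these, followed by Pgam2, a glycolytic enzyme of muscle, which fell 10.0-fold with 199 FPKM in 4T1-bearing muscle and 1998 FPKM in healthy Balb/c muscle. Such genes numbered 17 in the C26m2 table, and 14 were lower. Casq1 again fell most of them, and next came Pvalb, the soluble calcium buffer parvalbumin, with 2830 FPKM in C26m2-bearing muscle and 11238 FPKM in healthy CD2F1 muscle, a 3.97-fold fall. At a lower cut, 100 FPKM or more in at least 1 group, other genes fell more. There Casq1 had the 5th largest of 147 falls with 4T1 and the 3rd largest of 125 with C26m2. Counting genes of any level, Casq1 had the 24th largest of 2031 falls in the 4T1 table and the 41st largest of 1985 in the C26m2 table. Sln had the 44th largest of 2303 rises in the 4T1 table.

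**Figure D2:**
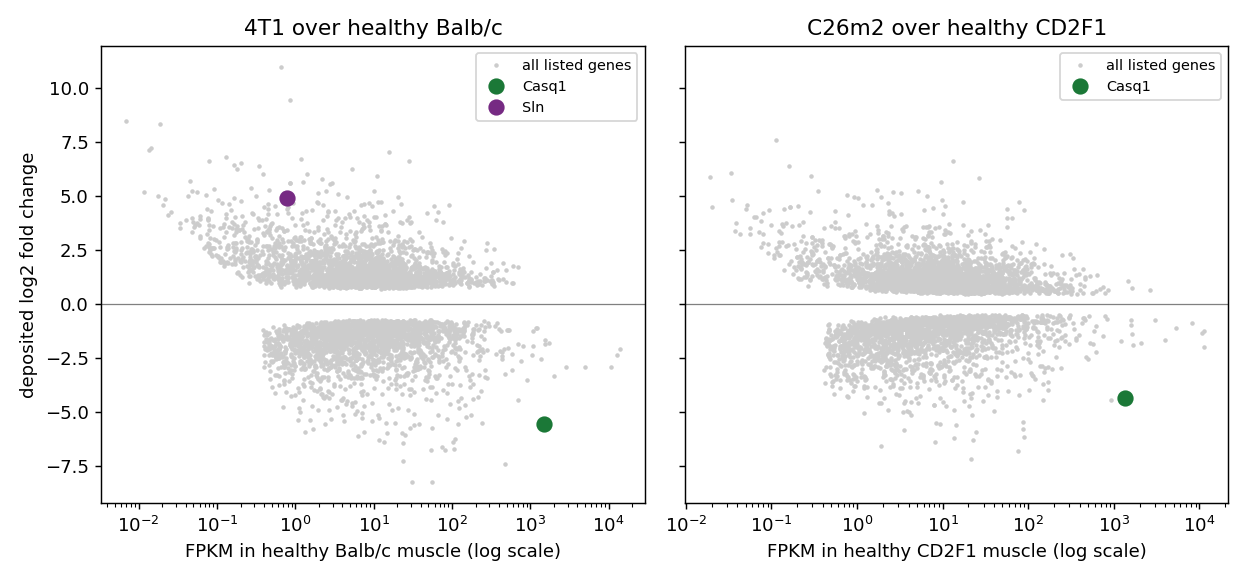
Deposited log2 fold change (tumour-bearing over healthy) against the healthy group's FPKM on a log scale, 1 point per listed gene, for the 4T1 table (left) and the C26m2 table (right). Casq1, at -5.57 and -4.35, lies apart from the other genes of 1000 FPKM or more, and Sln, at 4.94, lies among the genes under 1 FPKM in healthy muscle.

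Around the pair, 9 lists held 89 other genes of calcium handling. The 4T1 table called 38 of the 89, or 42.7%, where 32.8% of all tested genes were called. By direction 33 fell, or 37.1% against 15.4% of all tested genes, and 5 rose, or 5.62% against 17.4%. The C26m2 table called 45, or 50.6% against 36.8%, with 33 lower, 37.1% against 15.1%, and 12 higher, 13.5% against 21.7%. These shares are counts, and no test of the lists was made. The median log2 fold change of the genes called lower was -1.83 for calcium handling and -1.63 for all genes in the 4T1 table, and -1.05 and -1.38 in the C26m2 table. Thus the listed calcium genes were more often lower than tested genes as a whole, but the size of their falls was not larger in both models. The lists were fixed with earlier results of these data known, and the 89 genes may include some that were not tested. The difference in shares is therefore a description and supports no conclusion.

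The 2 comparisons share no library. Of the 89 genes, 30 were called in both tables, which is 78.9% of those called in the 4T1 table and 66.7% of those called in the C26m2 table. Over all genes the shares were close to these, 72.4% and 64.9%. All 30 went the same way, 26 lower and 4 higher, as did 99.2% of the 3138 genes in both tables. Among the 26 lower genes the fall was the larger in 4T1-bearing muscle for 22, as it was for 75.8% of all 1368 genes lower in both tables. With Casq1 included, the calcium genes with the 5 largest falls were Casq1, Sypl2, Jph2, Camk2a and Slc8a3 in each table, in differing order.

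**Figure D3:**
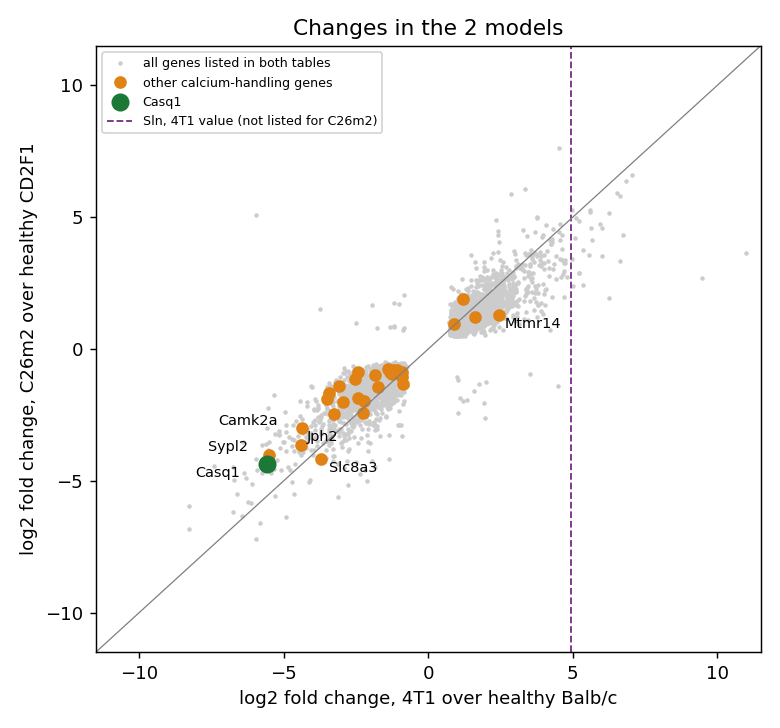
Log2 fold change in the C26m2 model against that in the 4T1 model for genes listed in both tables, with calcium-handling genes in orange, Casq1 in green and the line of equal change. The 30 other calcium genes lie in the lower left (26) or upper right (4), Casq1 lies at the lower left end of them, and the dashed line marks the 4T1 value of Sln, 4.94, which has no C26m2 value.

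Of 7 other genes of the calcium store, 3 fell, 1 rose and 3 had no row in each table. Those lower are 42.9% of the list, against 15.4% of all tested genes with 4T1 and 15.1% with C26m2. The higher share is 14.3%, against 17.4% and 21.7%. Sypl2 (mitsugumin 29), a protein of the junction between T-tubule and store, had 5.22 FPKM in 4T1-bearing muscle and 239 FPKM in healthy Balb/c muscle, a 45.7-fold fall. In the CD2F1 groups Sypl2 had 10.5 FPKM with C26m2 and 168 FPKM in healthy muscle, a 16.1-fold fall. Srl (sarcalumenin), a calcium-binding glycoprotein of the store, fell 3.55-fold with 4T1 and 2.00-fold with C26m2, to 199 and 306 FPKM. The gene that rose was Tmem38b, a potassium channel of the store membrane, which rose 2.33-fold with 4T1 and 3.74-fold with C26m2.

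The counterpart Casq2 was called in the 4T1 table, where it had 3.59 FPKM in 4T1-bearing muscle and 19.1 FPKM in healthy Balb/c muscle, a 5.33-fold fall. The fast form fell more than the slow form, so the Casq1 level was 8.74 times that of Casq2 in 4T1-bearing muscle and 78.0 times in healthy Balb/c muscle. Hrc, a histidine-rich calcium binder of the store, was called in the C26m2 table, with 152 FPKM in C26m2-bearing muscle and 245 FPKM in healthy CD2F1 muscle. There Casq1 stood at 0.436 times the Hrc level in C26m2-bearing muscle and at 5.54 times in healthy CD2F1 muscle. Srl, too, was less abundant than Casq1 in both healthy groups and more abundant in both tumour-bearing groups. The Casq1 to Srl ratio was 0.158 with 4T1 and 2.11 in healthy Balb/c muscle, and 0.217 with C26m2 and 2.21 in healthy CD2F1 muscle.

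Parts of the release machinery fell with the store. Of 17 genes, 6 fell and 1 rose in the 4T1 table, and 9 fell and 1 rose in the C26m2 table. The lower shares, 35.3% and 52.9%, compare with 15.4% and 15.1% of all tested genes. The higher share, 5.88% in each table, compares with 17.4% and 21.7%. Jph2 (junctophilin 2), which ties the store to the T-tubule, had 8.66 FPKM in 4T1-bearing and 184 FPKM in healthy Balb/c muscle, and 13.9 FPKM in C26m2-bearing and 172 FPKM in healthy CD2F1 muscle. Its falls were 21.2-fold and 12.3-fold. Asph, whose locus encodes junctin, a partner of calsequestrin at the release channel, as well as an enzyme, fell 11.4-fold with 4T1 and 3.72-fold with C26m2. Stac3, needed to couple the voltage sensor to release, fell 10.9-fold and 3.21-fold. The gene that rose with 4T1 was Itpr3, a receptor for the messenger IP3, which stayed under 1 FPKM in both groups. The one that rose with C26m2 was Cacng1, a subunit of the voltage sensor, with 527 FPKM in C26m2-bearing and 229 FPKM in healthy CD2F1 muscle. The ryanodine receptor gene Ryr1 has no row in either table used here.

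Regulators of the SERCA pump split in the 4T1 model. Mrln had 14.6 FPKM in 4T1-bearing muscle and 84.7 FPKM in healthy Balb/c muscle, a 5.81-fold fall, while Sln rose. The Mrln level was 0.601 times the Sln level in 4T1-bearing muscle and 107 times in healthy Balb/c muscle, where it rests on the low Sln value. With C26m2 Mrln had 42.9 FPKM, against 94.4 FPKM in healthy CD2F1 muscle, a fall with a log2 fold change of -1.14. No other gene of the list of 7 was called. Mrln alone is 14.3% of that list, near the 15.4% and 15.1% of all tested genes called lower. The pump genes Atp2a1 and Atp2a2 and the inhibitor gene Pln (phospholamban) have no row in either table used here.

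For entry and extrusion across the surface membrane, 4 of 14 genes fell and none rose with 4T1, and 5 fell and 1 rose with C26m2. Those lower are 28.6% and 35.7% of the list, against 15.4% and 15.1% of all tested genes. Those higher are 0% and 7.14%, against 17.4% and 21.7%. Slc8a3, a sodium-calcium exchanger, had 1.30 FPKM in 4T1-bearing and 16.8 FPKM in healthy Balb/c muscle, and 1.16 FPKM in C26m2-bearing and 20.95 FPKM in healthy CD2F1 muscle. Those falls were 12.9-fold and 18.1-fold, and here the C26m2 model had the larger one. Stim1 and Stim2, sensors of store filling, fell with 4T1 by 2.18-fold and 1.85-fold and with C26m2 by 1.90-fold and 2.51-fold. The surface calcium pump gene Atp2b3 fell 5.50-fold with 4T1, and its relative Atp2b1 and the channel gene Orai1 fell 1.85-fold and 1.88-fold with C26m2. Orai2, a store-operated channel, rose with C26m2, with 0.584 FPKM in C26m2-bearing and 0.161 FPKM in healthy CD2F1 muscle.

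Every called buffer and sensor fell: 6 of 9 genes in each table, or 66.7%. Of all tested genes 15.4% fell with 4T1 and 15.1% with C26m2. Pvalb had 1392 FPKM in 4T1-bearing muscle and 10602 FPKM in healthy Balb/c muscle, a 7.61-fold fall, with the C26m2 values given above. Calm3, a calmodulin gene, fell 9.56-fold with 4T1 and 5.48-fold with C26m2. Camk2a, a calmodulin-dependent kinase gene, had 6.20 FPKM in 4T1-bearing and 129 FPKM in healthy Balb/c muscle, and 20.1 FPKM in C26m2-bearing and 158 FPKM in healthy CD2F1 muscle. Of 9 genes of mitochondrial uptake, 2 were lower and 1 higher in each table, or 22.2% and 11.1%. Among all tested genes 15.4% were lower and 17.4% higher with 4T1, and 15.1% and 21.7% with C26m2. Such small counts are not read as a result about this list. The uniporter pore gene Mcu fell 2.37-fold with 4T1 and 1.91-fold with C26m2. Its regulator Micu3 fell 1.89-fold with 4T1 and 1.82-fold with C26m2, and Mcur1 rose 1.87-fold with 4T1 and 1.95-fold with C26m2.

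Transcripts of calcium-driven signalling and proteolysis genes moved in both directions in the C26m2 table. Of 13 calcineurin and NFAT genes, 5 fell in the 4T1 table, and 3 fell and 4 rose in the C26m2 table. With 4T1 that is 38.5% lower, against 15.4% of all tested genes. With C26m2 it is 23.1% lower and 30.8% higher, against 15.1% and 21.7%. The transcription factor gene Nfatc2 fell 4.75-fold with 4T1 and 5.34-fold with C26m2, and Ppp3cb, a catalytic subunit of calcineurin, 2.30-fold and 1.76-fold. The other catalytic subunit called lower, Ppp3ca, fell 2.11-fold and 1.73-fold. Ppp3r1, the calcineurin regulatory subunit, and Myoz1, a calcineurin-binding protein of fast muscle, fell 2.80-fold and 2.19-fold with 4T1. Myoz2, the form of the binding protein in slow muscle, rose 2.05-fold with C26m2, and Ppp3cc, Nfatc1 and Nfatc3 rose by 1.45-fold to 1.53-fold there. Of 5 calpain genes, 2 fell and 1 rose with 4T1, or 40% and 20% against 15.4% and 17.4% of all tested genes. With C26m2, 2 fell and 3 rose, or 40% and 60% against 15.1% and 21.7%. Capn3, the muscle calpain, fell 8.48-fold with 4T1 and 2.66-fold with C26m2, and Capn1 fell 2.48-fold and 1.84-fold. Cast, the gene of the calpain inhibitor calpastatin, rose 3.06-fold and 2.30-fold. With C26m2, Capn2 and the small subunit gene Capns1 rose as well, 1.48-fold and 1.58-fold. Of 8 triad membrane genes, 4 fell and 1 rose with 4T1, or 50% and 12.5% against 15.4% and 17.4% of all tested genes. For C26m2, 2 fell and 1 rose, or 25% and 12.5% against 15.1% and 21.7%. Cav3 (caveolin 3) fell 5.38-fold and 1.81-fold, Ank1 (ankyrin 1) fell 5.34-fold and 3.59-fold, and the phosphatase gene Mtmr14 rose 5.47-fold and 2.47-fold, with 4T1 first in each pair. Speg and Fhod1 fell 2.09-fold and 2.24-fold with 4T1.

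**Figure D4:**
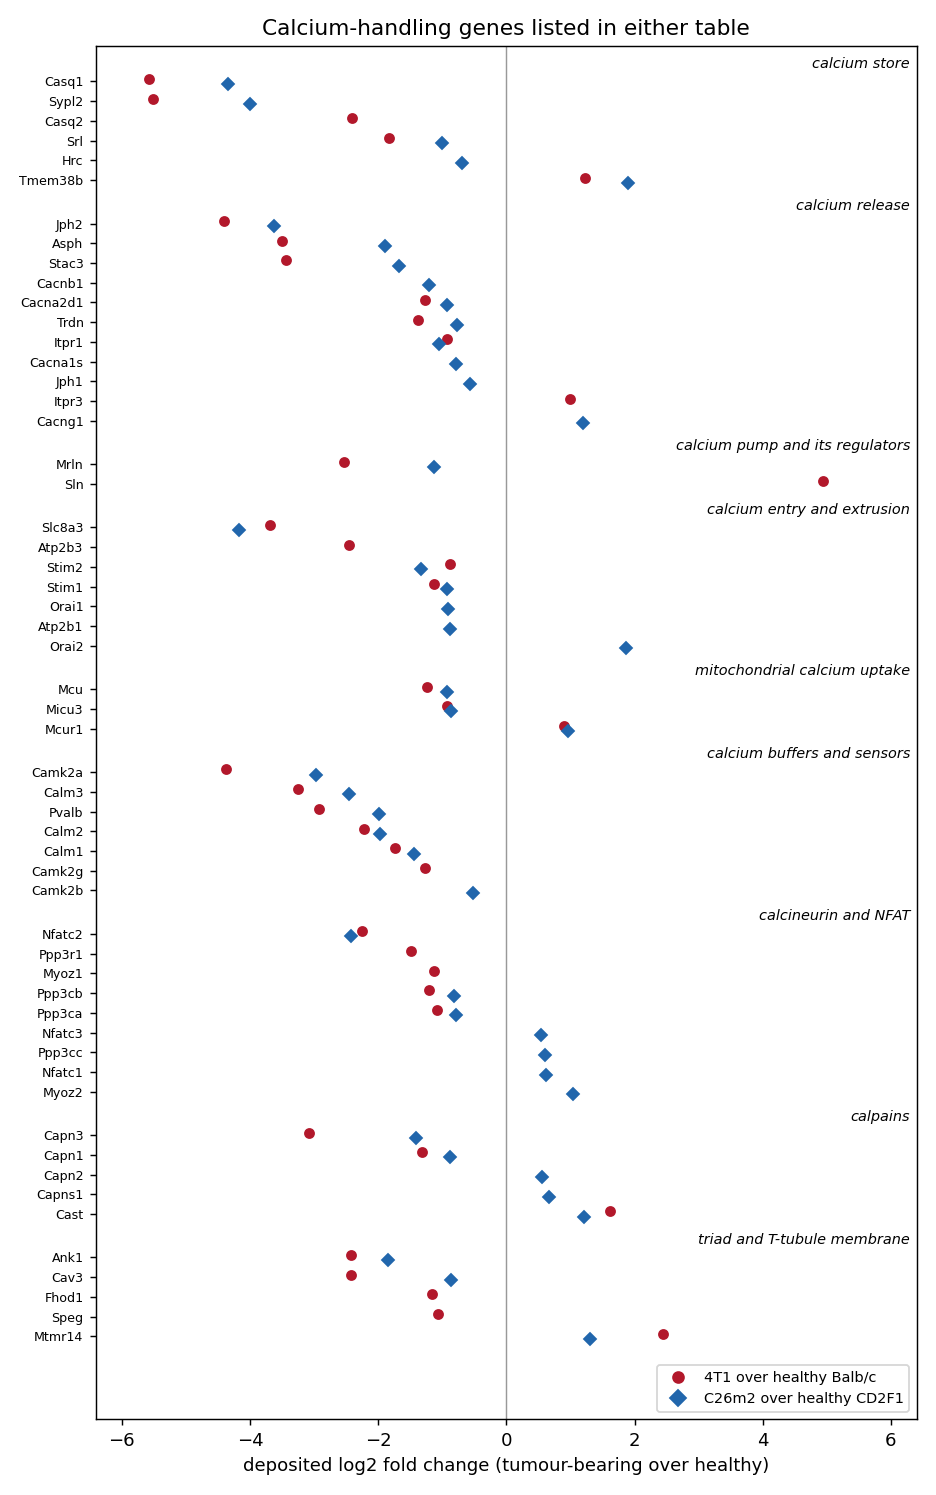
Deposited log2 fold change (tumour-bearing over healthy) of Casq1, Sln and the other calcium-handling genes listed in either table, grouped by role, with circles for 4T1 and diamonds for C26m2; a missing symbol means no row in that table. Most symbols lie left of 0, Casq1 at -5.57 and -4.35, and Sln at 4.94 is the point farthest to the right.

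Over genes listed in both tables with 1 FPKM or more in at least 1 group of each table, 2979 besides Casq1, those nearest to it were found by the distance between pairs of log2 fold changes, 1 from each model. The nearest were A530098C11Rik, Tas1r1, Kbtbd13, Wif1 and Sypl2, at distances of 0.13, 0.19, 0.25, 0.31 and 0.35 on the log2 scale. For 3 of them the folds rest on low levels in tumour-bearing muscle, where Tas1r1 had 0.0368 FPKM with 4T1 and 0.0658 FPKM with C26m2, Wif1 had 0.0713 and 0.181 FPKM and Kbtbd13 had 0.225 and 0.435 FPKM. Those 3 genes passed the filter in both tables through their healthy groups alone, as did A530098C11Rik with 4T1. The falls of the 5 ran from 40.2-fold to 46.5-fold with 4T1 and from 16.1-fold to 23.4-fold with C26m2. Sypl2 was the only one of the 5 on a calcium list, and the others were at 38.4 FPKM or less in healthy muscle. The same measure could not be had for Sln, which has 1 log2 fold change. Its 4T1 value alone was used instead, a choice made after the values were seen. The search covered 1019 genes that also have a row in the 4T1 table only, with 1 FPKM or more in at least 1 group. Genes near Sln included Chi3l1, Hk3, Ccr1 and Ifitm1, with rises of 30.0-fold to 35.8-fold. All of these passed the filter through the 4T1-bearing group alone. Their folds rest on low healthy Balb/c levels, from 0.0431 FPKM for Hk3 to 0.716 FPKM for Ifitm1. Ccr1 encodes a chemokine receptor known from white blood cells.

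Promoter windows are shown for 4 of the 5 calcium genes with the largest falls, since these moved together in both models, and Camk2a is named only. They are from RefSeq on GRCm38.p6, from 250 bases before to 50 bases after the start of each gene, and run along the gene's strand, which is minus for all. Casq1 lies at chr1:172219846-172220145, Sypl2 at chr3:108226550-108226849, Jph2 at chr2:163397944-163398243 and Slc8a3 at chr12:81333131-81333430. For Jph2 the reference holds 2 overlapping windows, and the one listed first is shown. Capitals mark E-boxes, CANNTG, the motif bound by myogenic factors among others.
Casq1: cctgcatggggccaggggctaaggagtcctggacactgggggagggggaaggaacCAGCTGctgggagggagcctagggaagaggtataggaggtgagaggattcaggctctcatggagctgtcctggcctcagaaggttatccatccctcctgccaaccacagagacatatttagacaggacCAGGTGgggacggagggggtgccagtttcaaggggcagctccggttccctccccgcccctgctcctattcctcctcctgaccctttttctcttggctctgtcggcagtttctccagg
Sypl2: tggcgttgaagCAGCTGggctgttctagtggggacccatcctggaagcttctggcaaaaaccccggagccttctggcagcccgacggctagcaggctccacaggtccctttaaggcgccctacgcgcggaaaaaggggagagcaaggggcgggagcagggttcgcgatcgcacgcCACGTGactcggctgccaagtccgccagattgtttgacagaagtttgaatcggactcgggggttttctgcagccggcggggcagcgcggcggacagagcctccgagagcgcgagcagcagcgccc
Jph2: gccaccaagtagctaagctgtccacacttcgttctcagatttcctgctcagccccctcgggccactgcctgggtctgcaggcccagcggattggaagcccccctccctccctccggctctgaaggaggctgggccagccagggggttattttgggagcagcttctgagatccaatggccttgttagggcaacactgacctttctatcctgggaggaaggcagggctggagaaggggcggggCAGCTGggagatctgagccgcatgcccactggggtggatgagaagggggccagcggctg
Slc8a3: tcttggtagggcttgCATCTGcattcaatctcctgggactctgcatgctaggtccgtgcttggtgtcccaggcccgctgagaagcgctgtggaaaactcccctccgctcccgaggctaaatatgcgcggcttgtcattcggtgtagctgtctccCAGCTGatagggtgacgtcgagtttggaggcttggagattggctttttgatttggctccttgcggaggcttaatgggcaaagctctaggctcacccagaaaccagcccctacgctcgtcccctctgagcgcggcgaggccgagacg

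Each window held at least 1 E-box, as did 72.3% of 32851 windows of the same length in the reference. Neither the MEF2 box, present in 3.19% of windows, nor the CArG box, present in 1.63%, nor the FoxO core GTAAACA, present in 3.65%, matched in the 4 windows on either strand. The NFAT core GGAAA was in those of Sypl2, Jph2 and Slc8a3 and in 61.3% of all windows. A match is a run of letters and does not show binding.

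Of 12 fast-fibre genes, 2 fell with 4T1, or 16.7%, near the 15.4% of all tested genes that fell, and 6 fell with C26m2, against 15.1% of all. None rose in either table. Myl1, a fast myosin light chain, fell 5.14-fold with 4T1 and 2.55-fold with C26m2, and Mylpf, another, 4.26-fold and 2.37-fold. The heavy chain genes Myh1, Myh2 and Myh4 have no row in either table used here. In whole muscle, fewer fibres of a type and less RNA per fibre cannot be told apart. Alongside Sln in the 4T1 model, 3 of 10 slow-fibre genes rose and 2 fell, where 17.4% of all tested genes rose and 15.4% fell. Myh6, a heart myosin, had 1.04 FPKM in 4T1-bearing muscle and 0.0608 FPKM in healthy Balb/c muscle. The slow troponin genes Tnnt1 and Tnni1 rose 4.00-fold and 4.40-fold. Of 8 markers of atrium and heart, Tnnt2 alone was called, at 3.29 FPKM with 4T1 and 0.541 FPKM in healthy Balb/c muscle, and Nppa, Myl4 and Myl7 have no row in either table used here.

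Genes of the denervation response moved in both directions beside Sln. With 4T1, 6 of 16 rose, or 37.5% against 17.4% of all tested genes, and 4 fell, against 15.4% of all. Myog (myogenin) had 37.3 FPKM with 4T1 and 3.74 FPKM in healthy Balb/c muscle, Musk, a kinase of the nerve-muscle junction, rose 11.0-fold and the transcription factor gene Runx1 21.5-fold. Those that fell were Ache (acetylcholinesterase), 13.2-fold, the junction receptor gene Lrp4, 5.71-fold, Chrne, the adult acetylcholine receptor subunit, 3.91-fold, and the sodium channel gene Scn4a, 1.91-fold. In the C26m2 table, where Sln has no row, 5 rose and 3 fell, or 31.2% and 18.8% against 21.7% and 15.1% of all tested genes. Myog there had 4.55 FPKM with C26m2 and 2.07 FPKM in healthy CD2F1 muscle, and Musk rose 2.17-fold and Runx1 11.7-fold. Ache, Chrne and Lrp4 fell with C26m2 too, 9.41-fold, 4.84-fold and 3.76-fold. Among those that rose in both tables was Hdac4, whose symbol carried a different gene identifier in each table. Whether genes of this list play a part in the Sln result was not tested.

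Markers of other cells were called too, and their part in the results was not tested. Of all tested genes, 17.4% rose and 15.4% fell with 4T1, and 21.7% rose and 15.1% fell with C26m2. Lists with 1 or 2 of 10 genes called in a direction are near those shares and are not read as a result. Of 10 neutrophil markers, 5 rose with 4T1 and 4 with C26m2. Those called with 4T1 summed to 2124 FPKM in 4T1-bearing and 2.99 FPKM in healthy Balb/c muscle. Most of the 4T1-bearing sum came from S100a8, at 1367 FPKM, and S100a9, at 615 FPKM. Those called with C26m2 summed to 109 FPKM in C26m2-bearing and 8.45 FPKM in healthy CD2F1 muscle. The neutrophil genes Ly6g, Mpo and Elane have no row in either table used here. All 10 fibroblast markers fell in each table, summing to 83.2 FPKM with 4T1 and 576 FPKM in healthy Balb/c muscle, and to 95.6 FPKM with C26m2 and 440 FPKM in healthy CD2F1 muscle. Tendon markers fell in 5 of 8 cases in each table. Macrophage markers split, 2 higher and 3 lower of 10 with 4T1 and 1 higher and 8 lower with C26m2. Endothelial markers were higher in 4 and lower in 1 of 10 with 4T1 and higher in 5 with C26m2. Of 8 red cell genes, 4 globin genes rose with 4T1 and 3 with C26m2. Of 10 lymphocyte markers, Ptprc, found on all white blood cells, rose with 4T1 and the antibody gene Ighm fell in both tables. No adipocyte marker of 10 was called with 4T1 and 3 fell with C26m2, and Schwann cell markers fell in 2 and 5 of 10 cases. Of 10 markers of tibialis anterior fibres, 1 fell with 4T1, Pvalb, and 2 fell and 2 rose with C26m2, and Pvalb remained at 1392 and 2830 FPKM in the tumour-bearing groups.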

How the data were processed

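RNA was measured in tibialis anterior muscle of 8 mouse libraries in 4 groups, prepared from poly-A RNA with the Illumina TruSeq kit, per the labels' protocols. Per the submitters' processing notes, the tools were Cufflinks 2.2.1 with Cuffdiff and TopHat2 2.1.0, and the build was NCBIM37. Annotation release, library normalization and use of strand were not given in the sources used here. The authors deposited 2 tables of significant genes with 1 group FPKM per gene and group, a log2 fold change of tumour-bearing over healthy muscle, and a p-value and q-value, per the file headers. The deposited log2 fold change was within 1.4e-05 of the log2 ratio of the FPKM values.

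The tables hold no value per library, so depth is unknown and nothing says whether libraries came from separate animals. Folds are ratios of group FPKM. No test was added to the authors' Cuffdiff results. The number of genes tested was estimated from q-value times rank over p-value, with medians of 13218 (range 13178 to 13337) for the 4T1 and 13121 (range 13117 to 13147) for the C26m2 table, and the estimate was checked on simulated data. The 9 calcium and 14 marker lists were matched by symbol and then by Ensembl identifier through reference tables, and Arln and Ahsp were in neither. Within each list the genes named are the 3 with the largest change in each table, plus Casq2, Hrc, Ryr1, Atp2a1, Atp2a2, Pln and Pvalb. Other called genes of short lists, and genes of the marker and fibre lists, were named after their values were seen. Members and lists were chosen with earlier results of these data known. In GENCODE M21, exons of Casq1 overlap the opposite-strand gene Gm17224, those of Asph, Ank1, Capn1, Capn2, Capns1, Cast, Fhod1, Itpr3, Micu3, Nfatc3, Orai1 and Ppp3cc overlap opposite-strand genes, and those of Capn3, Ppp3r1 and Tmem38b overlap same-strand genes. Reads of opposite-strand partners cannot be told apart without strand, and strand would not separate those of same-strand partners. Python 3.11.15, pandas 2.3.3 and matplotlib 3.10.9 were used. A gene near Sln in its change is not reported here.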

Additional observations from a re-analysis of the deposited data

How the results depend on the processing

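Of 25 alternative settings, 19 left a fold or count within 1.5 times its value as reported. Several could not have changed a result. Adding the same amount to both groups cannot reverse a direction, and the amounts are small beside the Casq1 levels. The stricter q-value leaves the folds of Casq1 and Sln as listed. Casq1 and Sln were still called at a q-value of 0.01 or less. With 1 FPKM added to both group values the rise of Sln was 14.1-fold, against 30.6-fold as listed, while Casq1 moved to falls of 46.2-fold and 20.1-fold. At a q-value of 0.01 or less, calcium genes called higher numbered 3 with 4T1 and 7 with C26m2, against 5 and 12 as listed. With an absolute log2 fold change of 1 or more they numbered 3 and 6, and those called lower with C26m2 numbered 18, against 33 as listed; these alternatives keep fewer genes by construction. Leaving out a library was not possible, since each group has 1 deposited value. No paired analysis was possible because the tables hold no value per library.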

Other observations

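Of 103 genes at least 16-fold higher with 4T1, 69 (67.0%) also have a row in the C26m2 table, 68 of them higher there, and Sln is among the 34 that have none. Of all 4334 genes of the 4T1 table, 72.4% have one. For those under 1 FPKM in healthy Balb/c muscle, as Sln was, 24 of 56 (42.9%) have a row there. Of 105 genes at least 16-fold lower with 4T1, Casq1 among them, 96 (91.4%) have a row in the C26m2 table, 95 of them lower.

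The slow myosin light chain gene Myl3, named after its values were seen, was called in opposite directions. It had 3.66 FPKM with 4T1 and 12.5 FPKM in healthy Balb/c muscle, and 16.3 FPKM with C26m2 and 9.43 FPKM in healthy CD2F1 muscle. The difference between models was not tested. Myl2, its partner in slow fibres and heart, was lower in both, by 5.44-fold with 4T1 and 3.16-fold with C26m2.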
